A study of Mus musculus with 12 samples.

Results

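Mouse embryonic stem (ES) cells of the B6J and the 129 background were compared while both were held under a MEK inhibitor. The comparison took the 6 libraries that the labels give as treated with the inhibitor, 3 of B6J and 3 of 129, out of 12 libraries in the study. All lines are labelled male ES cells and were kept in KO-DMEM with serum and LIF, the cytokine leukaemia inhibitory factor. The inhibitor, PD 0325901, was given at 1 µM each day up to day 5, when RNA was taken. The other 6 libraries are the same backgrounds given the solvent DMSO, and serve here as the reference for the strain difference without the inhibitor. Each background carries a single genotype label with no line, clone or passage, so strain and individual cell line cannot be told apart. The labels do not state whether the 3 replicates of each group were separate cultures, and the p-values measure the spread among replicates that may be technical.

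MEK is the kinase that phosphorylates and activates ERK, and in ES cells the main input to ERK is FGF4 made by the cells themselves. ERK activity moves ES cells out of naive pluripotency, and a MEK inhibitor is a component of the "2i" medium that holds them there. Prolonged MEK inhibition is also known to lower DNA methylation in ES cells, and the title of the study concerns how genetic variation changes that loss. ES lines from 129 mice are known to be easier to derive and keep in serum and LIF than lines from C57BL/6 mice.

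The 6 libraries held 65564142 to 96341637 counts. In each group 1 library stood apart, as measured by the chi-square per degree of freedom of each pair of libraries over genes. Library 1 of 129 gave 90.39 and 74.21 against the others, which gave 16.64 between themselves. Library 3 of B6J gave 128.4 and 44.81, against 27.98. The 10 ES cell markers summed to 5227 to 5318 CPM (counts scaled to the library total times its edgeR scaling factor) in 129. In B6J they summed to 5077 to 5287 CPM, with 0 of the 10 at 0. The 20 fibroblast markers, which feeder cells would carry, summed to 11060 to 17477 CPM in 129 and 10183 to 16241 CPM in B6J. None of the 20 was at 0, and the highest sums were those of the libraries that stood apart. The edgeR test called 0 of the 20 fibroblast markers between the strains, against 18.4% of all tested genes. Each fibroblast sum was above the ES cell sum, and the share of feeder cells was not measured. Of the Y-linked genes, Eif2s3y had 44.1 to 50.9 CPM in 129 and 18.6 to 44.3 CPM in B6J. Ddx3y had 12.3 to 35.7 CPM in 129 and 7.04 to 16.7 CPM in B6J. Kdm5d had 0.218 to 0.304 and 0.481 to 1.25 CPM. Xist, the RNA of X inactivation, had 48.8 to 72.5 and 53.4 to 86.8 CPM in these lines labelled male, and its source was not tested. The edgeR test called 0 of the 7 tested genes of this list, which holds Xist and Y-linked genes, against 18.4% of all tested genes.

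Of 16627 genes tested, 3053 differed between B6J and 129 under the inhibitor at a Benjamini-Hochberg adjusted p below 0.05 in edgeR's quasi-likelihood test, which is 18.4% of the genes. A gene past that threshold is described below as called. There were 1479 called genes higher in B6J (8.9% of those tested) and 1574 lower (9.47%). Large differences were more often toward 129. At least 2 log2 units separated the strains for 164 of the called genes higher in B6J and for 319 of those lower. The median log2 difference over all tested genes was -0.0078. In DMSO, in libraries that share none with this comparison, 3468 genes were called (20.9%), 10.4% higher in B6J and 10.5% lower. The strains differed in both media at 1787 genes, which is 58.5% of those called under the inhibitor and 51.5% of those called in DMSO. Of these, 1757 had the same direction and 30 the opposite direction. The test of the change in strain difference between media, an interaction term, called 246 genes (1.48%), 0.71% of genes toward B6J and 0.77% toward 129, of which 152 were also called under the inhibitor. It was 156 with the replicate block. The count also rested on single libraries: it was 586 without 129 DMSO library 1, and between 73 and 148 without any of the other DMSO libraries, 129 inhibitor library 2 or 3, or any B6J inhibitor library. With library 1 of 129 and library 3 of B6J both left out, the inhibitor comparison called 974 genes higher in B6J and 1185 lower.

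**Figure D1:**
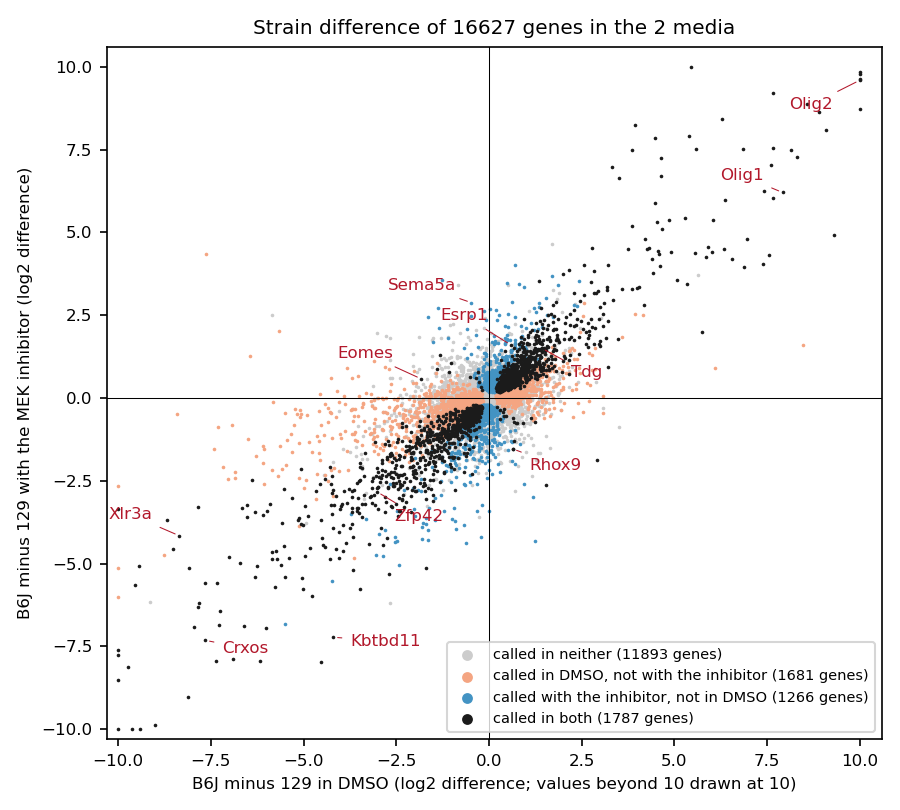
Each point is 1 of 16627 tested genes, with the log2 difference B6J minus 129 in DMSO on the x axis and with the MEK inhibitor on the y axis, and colour marks the medium in which the gene was called. Points called in both media (1787) lie along the diagonal, with 30 in the quadrants of opposite direction, such as Eomes and Rhox9.

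Genes with at least 5 CPM in the higher strain, no overlap of libraries and an established name were ranked by their log2 difference, and 12 are described in each direction. Toward B6J, Ubd and Olig2 were the first 2. Olig2, a factor of oligodendrocytes and motor neurons (ENSMUSG00000039830, chr16:91225457-91228677, plus strand), had 37.8, 39.7 and 41.2 CPM in B6J libraries 1, 2 and 3. In 129 the same gene had 0, 0.0453 and 0.0969 CPM. The log2 difference was 9.60 ± 0.40 (SE, n = 3 and 3, edgeR adjusted p = 4.14e-08). Its neighbour Olig1 (chr16:91269772-91271933) had 31.1 to 34.1 CPM in B6J and 0.315 to 0.604 CPM in 129, a log2 difference of 6.21 ± 0.26. In DMSO the differences of Olig2 and Olig1 were 10.47 and 7.92, and the interaction was not called for either (edgeR adjusted p = 0.754 and 0.0531). In bulk RNA, a few cells with a high level and many cells with a low level cannot be told apart. The processing notes name no separate genome build for 129, and how well its reads match the build used was not tested. This limit holds for every level near 0 in 129.

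Ubd, a ubiquitin-like modifier that interferon induces, had 9.64, 9.84 and 8.76 CPM in B6J and 2 counts over all 129 libraries, a ratio of 1040 (95% counting interval 287 to 8570). Most low counts in these libraries were even, so 2 counts may stem from 1 fragment, and counting intervals and bounds against 3 counts may be too narrow. Nod1, a sensor of bacterial cell walls, had 45.3 to 50.3 CPM in B6J and 3.86 to 5.99 in 129. Nlrp4f, an oocyte NLR family gene, had 43.1 to 56.4 CPM against 3.78 to 6.01. No overlap of the groups was a condition for choosing these genes, and 38.5% of all tested genes met it. Apoa2, an apolipoprotein of high-density lipoprotein, differed by 5.98 ± 0.33 log2 units, from 0.121 to 0.373 CPM in 129 to 12.9 to 15.8 CPM in B6J. Crisp1 and Serpina3m, which encode secreted proteins, differed by 4.49 and 4.19 log2 units. Carmil3, an actin capping regulator, differed by 3.75 and Tchh, the hair follicle protein trichohyalin, by 2.95. Sema5a, a guidance semaphorin, had 19.7, 16.7 and 14.1 CPM in B6J against 2.13, 2.19 and 2.53 in 129, a log2 difference of 2.88 ± 0.22. Rgcc, a regulator of the cell cycle, was the last of the 12 genes chosen by size, with 2.47.

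Toward 129, the largest difference was in Gbp2b, an interferon-induced GTPase. It had 1.41, 8.27 and 10.1 CPM in 129 libraries 1, 2 and 3 and 0 counts in B6J, at least 574-fold higher in 129 when the B6J group is set to 3 counts in all. Pla2g4e, a cytosolic phospholipase, had 13.5, 18.8 and 18.4 CPM in 129 and 0.0253 to 0.122 CPM in B6J (log2 difference -7.88 ± 0.47). Crxos, a homeobox gene expressed in early embryos and ES cells (ENSMUSG00000074365, chr7:15882617-15904020), had 29.5, 34.9 and 37.5 CPM in 129 against 0.189 to 0.228 in B6J. That is a log2 difference of -7.32 ± 0.29. Kbtbd11, a BTB and kelch domain gene (chr8:15011025-15033333), had 28.4, 35.9 and 37.1 CPM in 129. In B6J the same gene had 0.304, 0.231 and 0.147 CPM (-7.23 ± 0.29, edgeR adjusted p = 3.27e-08). No overlap of libraries was a condition for choosing these genes too. Pramef17, of the PRAME-like family of early embryos, has a near-identical copy and differed by -6.31, and Dnah6, a ciliary dynein, by -5.75. Capn3, a calpain of muscle, differed by -4.63 and Efhc2, an EF-hand gene on the X chromosome, by -4.62. Ccnb1ip1, a meiotic crossover gene, had 24.8 to 28.1 CPM in 129 and 0.904 to 1.29 CPM in B6J (-4.50). Mmrn2, a matrix protein of vessels, differed by -4.44. The other 2 of the 12, Eno1b and Pcna-ps2, are also near-identical to other genes and are taken up next.

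**Figure D2:**
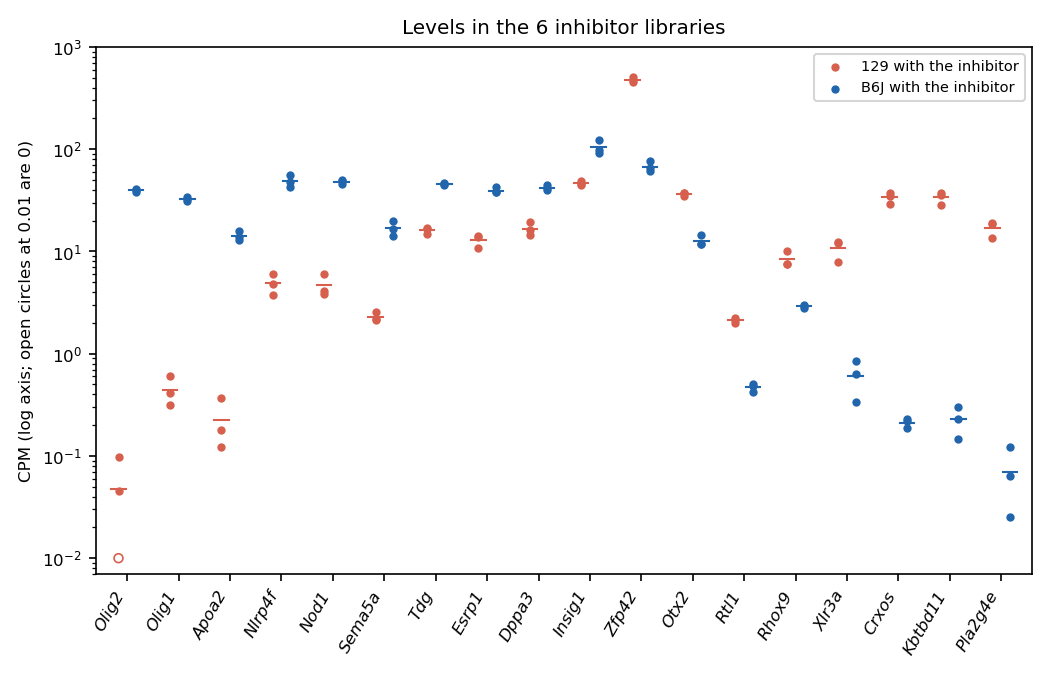
Each point is the level of a gene in 1 of the 6 inhibitor libraries, in CPM on a log axis, with 129 in red and B6J in blue. Bars mark the mean of 3 libraries and open circles at 0.01 mark a level of 0. The groups do not overlap for any of the 18 genes drawn, from Olig2 (0.0474 against 39.5 CPM on average) to Pla2g4e (16.9 against 0.0700 CPM). Lack of overlap held for 38.5% of all tested genes and was a condition for the genes ranked by size.

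Near-identical copies of other genes were common among the largest differences. Of all tested genes 3.43% had another gene at 95% identity or more over at least 50% of the shorter transcript, against 14.5% of the called genes that differed by 2 log2 units or more. Reads of such pairs can be assigned to either member. This limit also holds for Pramef17 and for Lefty2, Oas1a, Trim34a, Snrpn, Rpl29, Rplp1, Gm14406 and the Xlr genes, which are described below. Pcna, the sliding clamp of DNA replication (chr2:132249162-132253314, minus strand, 6 exons), and its single-exon pseudogene Pcna-ps2 (chr19:9283380-9284160) differ at 6 of 781 aligned bases of the reading frame. Ahcy, the enzyme that removes the methylation by-product S-adenosylhomocysteine (chr2:155059310-155074497, 10 exons), and the single-exon gene Gm4737 (chr16:46152985-46155077) differ at 4 of 1299. The 60 bases of each reading frame with the most differences are shown, as in GENCODE M21, with the bases that differ in capitals. They start at base 118 of the Pcna frame and at base 415 of the Ahcy frame, counted from 1 at the start codon.
Pcna: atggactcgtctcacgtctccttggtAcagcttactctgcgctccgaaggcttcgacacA
Pcna-ps2: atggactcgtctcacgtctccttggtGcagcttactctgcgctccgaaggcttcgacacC
Ahcy: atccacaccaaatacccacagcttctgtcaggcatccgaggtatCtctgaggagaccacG
Gm4737: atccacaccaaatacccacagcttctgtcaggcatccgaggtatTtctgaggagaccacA

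These pairs come from a choice that kept only pairs whose members went in opposite directions, with a member called. Their opposite directions therefore describe the choice, and pairs that went in the same direction were not counted. Pcna had 370, 344 and 338 CPM in B6J and 279, 265 and 283 CPM in 129, and was called higher in B6J (log2 0.35 ± 0.07). Pcna-ps2 had 2.46 to 2.95 CPM in B6J and 52.9 to 60.5 CPM in 129 (-4.45 ± 0.11). Their sum was 353.3 ± 17.4 CPM in B6J and 332.7 ± 13.3 CPM in 129 (SD, n = 3 each), a log2 ratio of 0.087, and the groups overlapped. Ahcy was called higher in B6J by 1.03 ± 0.08 log2 units and Gm4737 lower by -4.53 ± 0.12. Their sums were 138.9 ± 3.81 CPM in B6J and 128.9 ± 3.62 CPM in 129, a log2 ratio of 0.108. These sums did not overlap, at 135 to 142.6 CPM in B6J and 126 to 132.9 CPM in 129. For Eno1, a glycolytic enzyme, and its copy Eno1b, the sums were 1422 ± 52.3 CPM in B6J and 1488 ± 123 CPM in 129. Eno1b alone differed by -4.76 ± 0.12 and Eno1 was not called (0.16, adjusted p = 0.201). Hmga1, a chromatin protein, and Hmga1b have identical reading frames, with 0 differences in 324 bases, and their sums stayed apart at 475.5 ± 13.5 CPM in B6J against 275.9 ± 3.89 CPM in 129. Single-exon genes with a copy made up 9 of the 319 called genes lower by 2 log2 units or more and 2 of the 164 higher.

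Among naive pluripotency factors, the transcription factors and partners that hold ES cells in the preimplantation-like state, 7 of 22 tested were called (31.8%, against 18.4% of all genes), 3 higher in B6J and 4 lower. The median of the list was -0.178, and leaving out the 2 libraries that stood apart again gave 3 and 4. Zfp42, known as Rex1 and a standard marker of naive cells (ENSMUSG00000051176, chr8:43295063-43306980), was the farthest apart. It had 457, 506 and 479 CPM in 129 and 76.6, 64.9 and 60.7 CPM in B6J, a log2 difference of -2.84 ± 0.11 (edgeR adjusted p = 2.32e-08). The strains stood 3.02 log2 units apart in the same direction in DMSO, and the interaction was not called (edgeR adjusted p = 0.663). Fbxo15, an Oct4 and Sox2 target, was lower in B6J by -0.70 ± 0.13, from 345 to 408 CPM in 129 to 220 to 242 in B6J. Tcl1, a coactivator of AKT, was lower by -0.61 and Tbx3, a T-box factor, by -0.46.

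Dppa3, which protects the maternal genome from demethylation in the zygote, moved the other way. It had 44.9, 41.4 and 39.8 CPM in B6J and 14.5, 16.1 and 19.6 CPM in 129 (log2 1.33 ± 0.14). The gap was smaller than in DMSO, where it was 2.43, with an interaction of -1.10 (edgeR adjusted p = 0.0187). That interaction was not called without 129 DMSO library 2, B6J DMSO library 1 or B6J inhibitor library 2. Fgf4, the ligand that feeds the ERK pathway, was higher in B6J by 0.61 ± 0.12 and Klf4, a Kruppel-like factor, by 0.27 ± 0.07. Other naive factors did not pass the test. Nanog had 667 to 777 CPM in 129 and 679 to 761 CPM in B6J (95% interval of the log2 difference -0.40 to 0.36). Esrrb differed by 0.06, Tfcp2l1 by -0.28, Klf2 by -0.29, Klf5 by -0.17 and Prdm14 by -0.40.

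Core factors, which naive and primed cells share, were nearly level. Pou5f1 had 872 to 899 CPM in 129 and 809 to 841 CPM in B6J, a log2 difference of -0.10 ± 0.09 that was not called. Sox2 differed by -0.01 ± 0.11. Of 14 tested core genes only Tdgf1, the Nodal co-receptor Cripto, was called (0.56 ± 0.15, edgeR adjusted p = 0.0249), or 7.14% against 18.4% of all genes. Leaving out any of the 6 libraries ended that call, with adjusted p from 0.0605 to 0.0797. Of the 26 formative and primed genes tested, 3 were called higher in B6J and 2 lower. The share called in this list was near the 18.4% of all genes. Otx2, which drives the exit from naive pluripotency (chr14:48657677-48673819), had 37.3, 34.7 and 37.7 CPM in 129 and 14.7, 11.7 and 11.8 CPM in B6J (-1.52 ± 0.15, adjusted p = 2.92e-05). Lefty2, a Nodal antagonist, was higher in B6J by 0.59 ± 0.11 and Sall2, a zinc finger factor, by 0.61 ± 0.12. Lef1, a Wnt effector, was higher by 0.86, but its adjusted p rose to between 0.054 and 0.0654 without 129 library 1 or any of the B6J libraries. Grhl2, an epithelial factor, was lower by -0.53, with adjusted p of 0.0602 to 0.0721 without 129 library 2 or 3 or B6J library 1 or 2. The list count fell to 3 without B6J library 1, without B6J library 2, and with both libraries that stood apart left out.

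**Figure D3:**
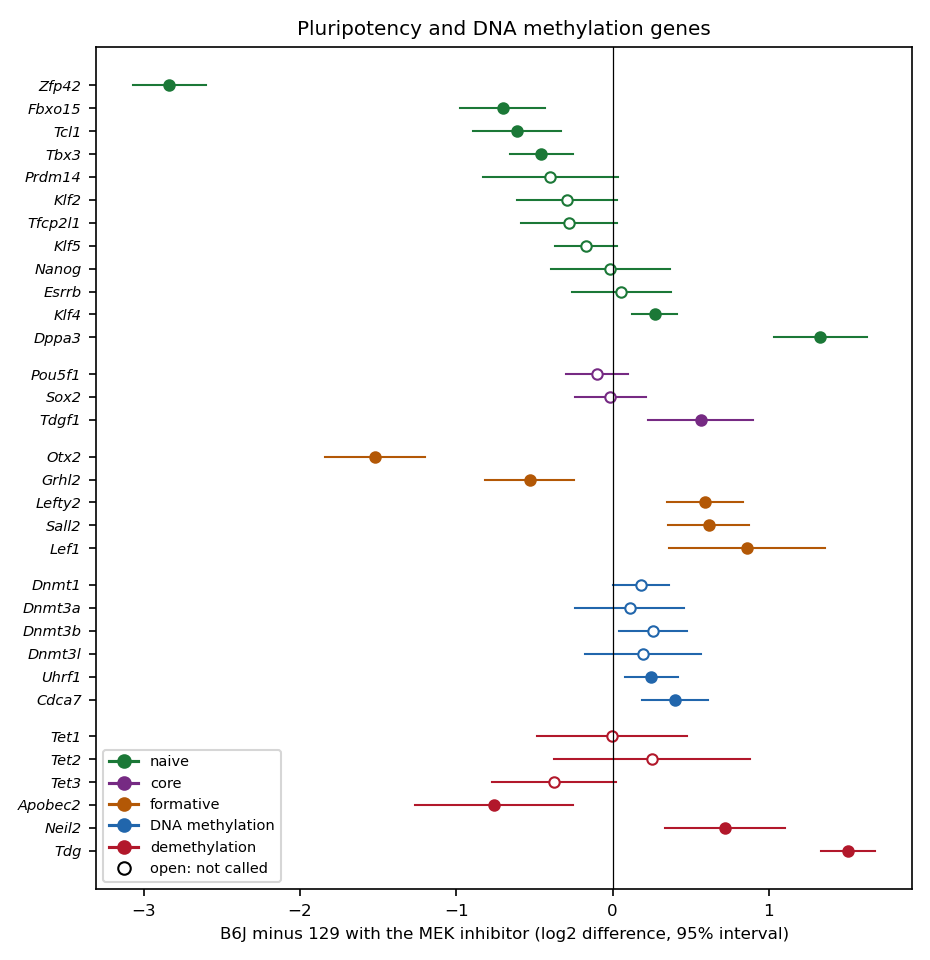
Log2 differences B6J minus 129 under the MEK inhibitor (x axis) with 95% intervals for 32 pluripotency, DNA methylation and demethylation genes, filled where called. Zfp42 (-2.84) and Otx2 (-1.52) lie far toward 129, Tdg (1.51) and Dppa3 (1.33) far toward B6J, and the intervals of Nanog, Esrrb, Sox2, Dnmt3a, Dnmt3l and Tet1 span 0.

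The ERK pathway was measured through its cascade, its ligands and its transcriptional targets. In the cascade from RAS to ERK 1 of 20 tested genes was called (5%, against 18.4% of all genes). It was the scaffold Ksr1 (0.68 ± 0.20, edgeR adjusted p = 0.0369). Its adjusted p was 0.0571 to 0.112 when any library other than 129 library 2 was left out. Of 17 FGF ligands and receptors 2 were called (11.8%), a share below that of all genes. Fgf4 was higher in B6J and Fgf15 lower (-1.60 ± 0.17, from 3.44 to 4.48 CPM in 129 to 1.14 to 1.59 CPM in B6J). Of 29 feedback and immediate early genes, which ERK switches on and which are used to read its activity, 8 were called higher in B6J and 2 lower. That is 34.5%, against 18.4% of all genes, with a median of 0.217. Dusp6, an ERK phosphatase, had 39.9, 39.1 and 41.7 CPM in B6J and 26.5, 26.1 and 27.5 CPM in 129 (0.59 ± 0.08, edgeR adjusted p = 0.000451). The other 7 called members higher in B6J included Egr2 at 0.88 ± 0.21 and Dusp4 at 0.47 ± 0.14. Egr2 was not called with limma-voom, nor with both libraries that stood apart left out (edgeR adjusted p = 0.119). Dusp4 was not called without 129 library 1, 2 or 3 or B6J library 2 or 3 (adjusted p from 0.0536 to 0.142).

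Egr3, an immediate early zinc finger factor, changed sides between media. Under the inhibitor it had 0.696, 0.657 and 0.841 CPM in B6J and 0.331, 0.468 and 0.267 CPM in 129 (1.05 ± 0.25). In DMSO the averages were 2.86 CPM in B6J and 5.83 CPM in 129, a difference of -1.03, and the interaction was 2.08 ± 0.33 (edgeR adjusted p = 0.0118). All of its levels under the inhibitor were below 1 CPM, and without 129 library 3 the inhibitor call was lost (edgeR adjusted p = 0.0558). Egr1 and Spry4 did not pass the test, at 0.27 ± 0.20 and -0.09 ± 0.14. Etv1, an ETS factor, was lower in B6J at -0.61 and Myc at -0.57. Etv1 was not called without 129 library 2 or 3 or B6J library 1 or 2 (adjusted p up to 0.068), nor Myc without 129 library 1 or B6J library 2 (0.0531 and 0.0503). The count of called genes in the list was 6 without 129 library 2, 5 without 129 library 3 and 6 without B6J library 2. It was 4 (3 higher, 1 lower) with both libraries that stood apart left out. In the LIF pathway, which sustains ES cells through STAT3, 2 of 14 genes were called (14.3%, near the 18.4% of all genes). Socs3, its feedback inhibitor, was lower in B6J (-0.35 ± 0.10), and Ptpn6, a phosphatase, was higher (0.32 ± 0.10). With the replicate block 0 of the 14 were called, and likewise without 129 library 1 or 2 or B6J library 1 or 2, and without 129 library 3 there was 1.

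DNA methyltransferases were not called between the strains under the inhibitor. Dnmt1, which copies methylation at replication, had 350, 445 and 416 CPM in 129 and 474, 449 and 449 CPM in B6J (log2 0.18 ± 0.08, edgeR adjusted p = 0.16). Dnmt3a and Dnmt3b, the de novo enzymes, differed by 0.11 (95% interval -0.24 to 0.46) and 0.26 (0.04 to 0.47). Dnmt3l, their catalytically inactive cofactor, differed by 0.20 (-0.17 to 0.57). In DMSO, Dnmt3a and Dnmt3l were called higher in B6J, by 0.95 and 0.90, but the interaction did not pass the test for either (edgeR adjusted p = 0.108 and 0.211). Of 14 genes of methylation and its maintenance 4 were called, all higher in B6J (28.6%, against 18.4% of all genes). They were Ahcy and Pcna, whose pairs with copies are given above, Cdca7 and Uhrf1. Cdca7, a cofactor of the remodeller HELLS, had 238, 233 and 224 CPM in B6J against 173, 176 and 179 in 129 (0.40 ± 0.10). Uhrf1, which brings DNMT1 to hemimethylated DNA, differed by 0.25 ± 0.08. Leaving out any library other than 129 library 2 ended the call of Uhrf1 (edgeR adjusted p from 0.06 to 0.0922), and 2 of the 14 were called with both libraries that stood apart left out.

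On the demethylation side, Tdg, the glycosylase that excises oxidised methylcytosine (ENSMUSG00000034674, chr10:82629828-82650799), showed the largest difference. It had 45.9, 46.8 and 44.8 CPM in B6J and 14.7, 16.6 and 17.02 CPM in 129, a log2 difference of 1.51 ± 0.08 (edgeR adjusted p = 2.55e-07). The difference in DMSO was 1.42, and the interaction was 0.09. Of 19 genes 3 were called higher in B6J (Tdg, Dppa3 and the glycosylase Neil2, 0.72 ± 0.18) and 1 lower (Apobec2, -0.76). That is 21.1%, near the 18.4% of all genes. Apobec2, a deaminase family member, was not called without 129 library 2 or 3 or any B6J library (adjusted p up to 0.135). The TET dioxygenases, which oxidise methylcytosine, were not called. Tet1 had 455, 778 and 740 CPM in 129 and 794, 691 and 482 CPM in B6J, and Tet2 had 106 to 199 and 128 to 236 CPM. The lowest value of both genes in each strain came from the library that stood apart. Tet3 differed by -0.38 ± 0.18. Among 21 genes of imprint protection and H3K9 silencing, Setdb1, an H3K9 methyltransferase, was lower in B6J at 176 to 185 CPM against 219 to 256 in 129 (-0.42 ± 0.07). In DMSO it was higher in B6J by 0.38, and the interaction was -0.80 ± 0.09 (edgeR adjusted p = 0.00264). Dppa3 was the other called gene of that list (9.52% called, below the 18.4% of all genes). Zfp57 and Trim28, which guard imprints, differed by 0.12 and -0.12 without passing the test.

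Germline genes that DNA methylation keeps silent in other cells were lower in B6J more often than higher. Of 51 tested, 15 were lower and 3 higher (35.3% called, against 18.4% of all genes), and the median was -0.433. With both libraries that stood apart left out, 16 were lower and 3 higher. In DMSO 14 were lower and 7 higher. The 15 lower under the inhibitor include Xlr3a, Xlr3b, Xlr4a and Xlr5a of the same X cluster and Rhox6 and Rhox9 of another. They also include Zfp42, which is in the naive list as well. The genes at the low end were the X-linked Xlr genes, which are near-identical copies of each other. Xlr3a, of the lymphocyte-regulated family, had 7.84, 12.1 and 12.5 CPM in 129 and 0.848, 0.341 and 0.630 CPM in B6J (log2 -4.16 ± 0.31). The gap was wider in DMSO, at -8.36, with an interaction of 4.21 ± 0.54 (edgeR adjusted p = 0.0042). Xlr5a and Xlr4a differed by -5.65 and -5.44 from 129 levels of 0.755 to 1.05 and 1.62 to 1.88 CPM. Rpl10l, a testis copy of a ribosomal protein gene, had 62.8, 82.1 and 81.0 CPM in 129 and 8.93 to 9.55 CPM in B6J (-3.02 ± 0.25). Higher in B6J were Dmc1, the meiotic recombinase, with 15.9, 13.5 and 10.7 CPM against 3.31, 3.97 and 3.94 (1.84 ± 0.23), Ddx4, the germ cell helicase Vasa (0.96 ± 0.20), and Tdrd5, a piRNA factor (1.02 ± 0.13). The 2-cell-like genes, a transient program of ES cultures, had 2 of 29 called higher and 3 lower (17.2%, near the 18.4% of all genes). Pramel6 and Pramel7, both lower in B6J, differed by -3.29 and -2.30. The count was 2 without B6J library 2, 3 without B6J library 3, and 2 with both libraries that stood apart left out.

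DNA methylation itself was not measured in these libraries. Imprinted genes, which are expressed from 1 parental allele under its control, had 4 of 59 tested members higher in B6J and 11 lower (25.4% called, against 18.4% of all genes). With both libraries that stood apart left out the counts were 3 and 9. Of the Dlk1-Dio3 region, Rtl1, Mirg, Meg3 and Dio3 were called lower in B6J and Dlk1 was not called (-0.48, edgeR adjusted p = 0.257). The noncoding RNA Mirg had 18.3, 20.5 and 16.2 CPM in 129 and 5.01, 4.97 and 6.07 CPM in B6J (-1.77 ± 0.16), and the retrotransposon-derived Rtl1 had 1.999 to 2.23 CPM against 0.426 to 0.506 (-2.17 ± 0.22). Snrpn, of the Prader-Willi region, had 90.9, 66.5 and 68.8 CPM in 129 and 33.1 to 34.4 in B6J (-1.16 ± 0.11), and Peg12, of the same region, differed by -1.16. Peg3, a zinc finger gene, and Usp29 beside it were higher in B6J. Peg3 had 387, 332 and 261 CPM in B6J and 94.0, 106 and 105 CPM in 129 (1.69 ± 0.30), and Usp29 differed by 1.65 ± 0.24. In DMSO the differences were 0.07 and 0.17 and not called, but the interaction did not pass the test (edgeR adjusted p = 0.0894 and 0.0567). Ppp1r9a and Nnat, called at 0.80 and 0.60, were each not called without 4 or 5 of the libraries. Those were 129 library 1 or 3 or B6J library 1 or 2 for Ppp1r9a (adjusted p up to 0.181) and any but B6J library 1 for Nnat (up to 0.172).

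The lists of other lineages had between 11.1% and 28.6% of their members called, against 18.4% of all genes. The neuroectoderm list had 3 of 21 members higher in B6J and 0 lower (14.3%), and the third beside Olig2 and Olig1 was Sox11. This factor of immature neurons had 40.1, 33.7 and 29.9 CPM in B6J and 7.76, 10.8 and 10.04 CPM in 129 (1.86 ± 0.22). In DMSO the difference was 0.13, and the interaction was 1.73 (edgeR adjusted p = 0.0187). That interaction was not called without 129 DMSO library 2, 129 inhibitor library 3 or B6J inhibitor library 1 or 2. Of 21 mesoderm and primitive streak genes 3 were higher and 3 lower (28.6%). Brachyury (T), the streak marker, had 1.19, 4.17 and 4.86 CPM in 129 and 0.693 to 0.709 CPM in B6J (-2.29 ± 0.47). The call of T was lost with limma-voom. Kdr, a receptor of vessel precursors, differed by -1.77 and Sp5, a Wnt target, by -1.25. Eomes, a T-box factor of streak and trophoblast, had 5.88, 5.63 and 5.81 CPM in B6J and 3.12, 3.83 and 4.63 CPM in 129. Its log2 difference was 0.58 under the inhibitor and -1.83 in DMSO, with an interaction of 2.41 ± 0.23 (edgeR adjusted p = 0.00115). The inhibitor call of Eomes was lost without any library but 129 library 3 (adjusted p from 0.078 to 0.107). The mesoderm list's count was 3 without B6J library 3. With both libraries that stood apart left out, 0 were higher and 5 lower, and with the replicate block 3 and 5.

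In the primitive endoderm list 2 of 18 were called (11.1%), both lower in B6J. Hnf4a, an endoderm regulator, had 1.64 to 2.32 CPM in 129 and 0.114 to 0.252 CPM in B6J (-3.45 ± 0.72). Foxa2, a forkhead factor, had 1.90, 0.513 and 0.291 CPM in 129, and its call (-2.46) was lost without 129 library 1 or any B6J library (adjusted p up to 0.197). Of 15 trophoblast genes 4 were called (26.7%). Higher were 2, with Esx1, a homeobox gene on X, at 1.80 ± 0.32 and Tfap2c, an AP-2 factor, at 0.38 ± 0.09. The AP-2 gene Tfap2a (-1.43 ± 0.21) and the keratin gene Krt19 (-1.50) were lower, the last not called without 129 library 1 or B6J library 2 (0.0583 and 0.0569). Hox genes, polycomb subunits and BMP signalling had 2 of 35, 1 of 26 and 2 of 18 called, below the share of all genes. Single libraries moved these counts: Hox to 1 without any library but 129 library 1, polycomb to 2 without 129 library 1 and 3 without B6J library 3, and BMP to 1 without B6J library 2. Epithelial genes had 6 of 20 higher in B6J and 1 lower (35%, against 18.4% of all genes), or 4 and 1 with both libraries that stood apart left out. Esrp1, a splicing regulator of epithelia, had 42.3, 38.0 and 37.8 CPM in B6J and 10.8, 14.2 and 13.9 CPM in 129 (1.60 ± 0.10). Epcam, an adhesion molecule, had 113 to 123 CPM against 53.7 to 57.8 CPM (1.07 ± 0.10), and the claudin genes Cldn6 and Cldn7 differed by 1.03 and 0.99. The Esrp1 gap was 0.59 in DMSO, with an interaction of 1.01 ± 0.14 (edgeR adjusted p = 0.00572).

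Cholesterol synthesis had the largest share of called members of the 35 lists. Of 24 tested genes 13 were higher in B6J and 1 lower (58.3%, against 18.4% of all genes), and the median was 0.369 against -0.0078 over all genes. Insig1, which senses sterol and is itself a target of the sterol factor SREBP2, had 124, 98.3 and 91.8 CPM in B6J and 44.7, 48.7 and 45.9 CPM in 129 (1.17 ± 0.11). Cyp51, a sterol demethylase, differed by 0.55 ± 0.09. Idi1, an isomerase of the pathway, differed by 0.55 ± 0.14 and was not called without 129 library 1 or B6J library 1 or 2 (adjusted p from 0.052 to 0.0836). Stard4, a sterol carrier, went the other way, at 18.03 to 25.5 CPM in B6J and 37.2 to 41.5 CPM in 129 (-0.89 ± 0.11). B6J library 1 held the highest level of Insig1, Cyp51 and Idi1. Without it 9 of the list's genes were called, as without B6J library 2. With both libraries that stood apart left out, 10 were higher and 1 lower. In DMSO 9 were higher and 2 lower, and the interaction was called for 0 of the 24.

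**Figure D4:**
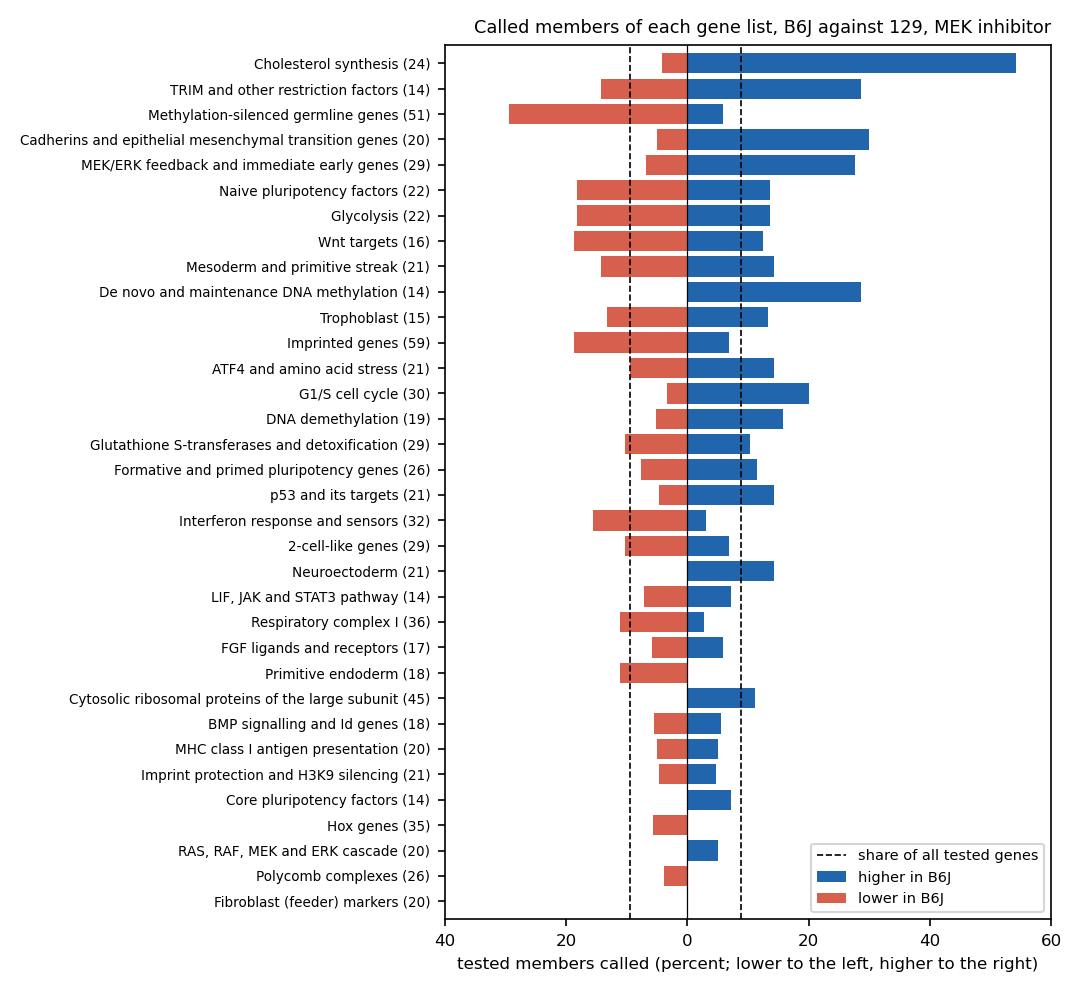
Bars give the percent of tested members of each gene list called higher in B6J (right, blue) or lower (left, red) under the inhibitor, with the number tested in brackets and dashed lines at the shares of all tested genes, 8.9% and 9.47%. Cholesterol synthesis extends farthest to the right and the germline list farthest to the left, while the fibroblast list has no bar.

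Other metabolic lists had smaller shares called. Glycolysis had 3 of 22 members higher and 4 lower (31.8%, against 18.4% of all genes). Pfkm, the muscle phosphofructokinase, was higher in B6J (0.56 ± 0.09) and Pfkp, the platelet form, lower (-0.67 ± 0.17). Pfkp had 223, 172 and 133 CPM in B6J and its call was lost without 129 library 2 or 3 or B6J library 2 (0.0581 to 0.0613). Pdk1, a kinase that restrains pyruvate oxidation, was lower (-0.33) after being higher in DMSO (0.42), with an interaction of -0.75 (edgeR adjusted p = 0.0167). Without B6J library 1 or 2 its inhibitor call was lost (0.0511 and 0.0519), and the interaction was not called without 129 DMSO library 2 or B6J inhibitor library 2. With both libraries that stood apart left out, 4 of the 22 were called. In complex I 13.9% of the genes were called. Of 36 tested, 4 were lower, by -0.37 to -0.54, and Ndufs5 was higher, with 13.4 to 14.1 CPM in B6J and 2.69 to 3.50 CPM in 129 (2.16 ± 0.14). Of 45 ribosomal protein genes of the large subunit 5 were higher and 0 lower (11.1% called, against 18.4% of all genes). Rpl29 had 330, 342 and 368 CPM against 151, 134 and 126 CPM (1.34 ± 0.09) and shares its sequence with a copy. Rplp0, of the ribosomal stalk, had 2244, 2329 and 2487 CPM against 1394, 1129 and 1124 (0.95 ± 0.10).

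The ATF4 list had 23.8% of its genes called, the p53 list 19% and the G1/S list 23.3%, near the 18.4% of all genes. Atf4, the amino acid stress factor, was higher in B6J at 391 to 400 CPM against 256 to 282 (0.56 ± 0.06), while Slc7a11, the cystine transporter, was lower (-1.22 ± 0.20). The Atf4 gap was 1.03 in DMSO, with an interaction of -0.47 (edgeR adjusted p = 0.0269) that was not called without any of 5 libraries. Those were 129 DMSO libraries 2 and 3, B6J DMSO library 2 and B6J inhibitor libraries 1 and 2. Pmaip1, the pro-apoptotic protein Noxa, was higher in B6J at 129 to 138 CPM against 58.3 to 76.3 (1.04 ± 0.15). Aen, a nuclease that p53 induces, was lower (-0.63 ± 0.07). The p53 list had 3 of 21 higher and 1 lower, and 2 called without any 1 of the 129 libraries or without B6J library 2. Of 30 G1/S genes 6 were higher, with E2f1 at 0.44 ± 0.09 and the phosphatase gene Cdc25a at 0.44 ± 0.08. Cdkn1b, the cell cycle inhibitor p27, was lower (-0.65 ± 0.12), and 4 of the list were called without B6J library 1 or with both libraries that stood apart left out. Among detoxification genes Gsto1 was higher in B6J (1.15 ± 0.19), and Aldh3a1 (-2.40 ± 0.23) and Gsta3 (-1.32 ± 0.16) were lower.

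In the interferon list 1 of 32 was higher in B6J and 5 lower, a share of 18.8% called that is near the 18.4% of all genes. Xaf1, a pro-apoptotic factor, had 38.0, 38.6 and 42.6 CPM in 129 and 8.52, 10.1 and 8.87 CPM in B6J (-2.12 ± 0.10). Gbp2, a guanylate-binding protein, had 5.98, 12.9 and 15.02 CPM in 129 and 3.13 to 4.07 CPM in B6J (-1.65 ± 0.31). Cgas, the sensor of cytosolic DNA, and Oas1a, a sensor of double-stranded RNA, were called at -0.99 and -0.92, and Ifitm3 at 0.45. None of these 3 was called without 129 library 2 or 3 or B6J library 2 or 3, and neither Cgas nor Oas1a without B6J library 1 (adjusted p up to 0.116). The list's count was 3 without any 1 of these 4 libraries. Of 14 TRIM and other restriction factors 4 were higher and 2 lower (42.9%). Fv1, a retroviral restriction gene, had 7.66, 5.84 and 5.91 CPM in B6J and 0.856, 1.80 and 1.09 CPM in 129 (2.38 ± 0.25), and Trim12a and Trim34a differed by 1.58 and 1.41. Apobec3, a cytidine deaminase, was lower in B6J at 102 to 123 CPM against 147 to 168 (-0.51 ± 0.12). In the class I antigen list 2 of 20 were called (10%, below the share of all genes), H2-T24 at 2.91 ± 0.24 and Psmb8 at -1.43, the last not called without 129 library 2 or 3 or B6J library 1 or 2 (up to 0.101).

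Runs of called genes along the chromosomes were searched for in 16437 windows. Windows of 10 neighbouring tested genes with at least 6 called in the same direction merged into 22 runs, 10 higher and 12 lower in B6J. This rule was set after the values had been seen. It sets a high share of called genes in every run, whereas 8.9% of all tested genes were higher and 9.47% lower. Whether called genes cluster more than a random order would give was not tested. Whether reads of 129 match the genome build less well in these runs was not tested. The run with the most called genes was a cluster of zinc finger genes on chromosome 2 (chr2:176708328-178034022), where 16 of 16 tested genes were higher, with a median of 4.39 log2 units and 4.60 in DMSO. Of these 16, 6 have near-identical copies. Gm14401, of this cluster, had 20.6, 18.2 and 7.99 CPM in B6J and 0 to 0.0302 CPM in 129. B6J library 3 was the lowest for the cluster genes Gm14401, Gm14406, Gm14409 and Gm14412. On X (chrX:72432681-73398736) 13 of 18 genes around the Xlr family were lower, with a median of -4.16 among those called. Of these 13 called genes, 9 have near-identical copies. A second run on X (chrX:37209348-38129967) held the Rhox homeobox genes, 6 of 8 lower with a median of -2.07 among those called. Rhox9 had 10.1, 7.50 and 7.59 CPM in 129 and 2.92, 2.82 and 2.96 CPM in B6J (-1.53 ± 0.16). In DMSO it was higher in B6J by 0.64, and the interaction was -2.17 ± 0.22 (edgeR adjusted p = 0.00166). Rhox6 beside it had differences of -1.53 and 0.65 and an interaction of -2.18.

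Further runs held genes of related function or none. On chromosome 3 (chr3:93273523-93693070) 6 of 8 genes of the epidermal differentiation region were higher in B6J. Flg, the skin barrier protein filaggrin, had 1.30 to 1.73 CPM in B6J and 0 counts in 129 (at least 109-fold higher), and Hrnr was at least 31.9-fold higher. On chromosome 17 (chr17:36005695-36859398) 6 of 10 were higher, among them H2-T3, a class I gene, with 3.15 to 4.11 CPM against 0 to 0.0552. On chromosome 11 (chr11:60830631-61512931) 11 of 17 were lower, with a median of -1.12 among those called. There the drug transporter Slc47a1 had 7.01, 12.2 and 11.2 CPM in 129 and 1.10 to 1.31 CPM in B6J (-3.10 ± 0.31). Chromosome 11 as a whole had 69 called genes higher and 158 lower of 1345 tested (16.9% called), with a median of -0.089. On X the counts were 21 and 73 of 592 (15.9% called). Both shares were below the 18.4% of all tested genes, of which 8.9% were higher and 9.47% lower. On chromosome 4 (chr4:54945048-57916297) 10 of 17 were higher, Klf4 among them, with Zfp462, a zinc finger gene, at 0.83 ± 0.16. On chromosome 7 (chr7:45526330-45694556) 8 of 11 were higher, including Fut2, a fucosyltransferase, at 1.63 ± 0.36.

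**Figure D5:**
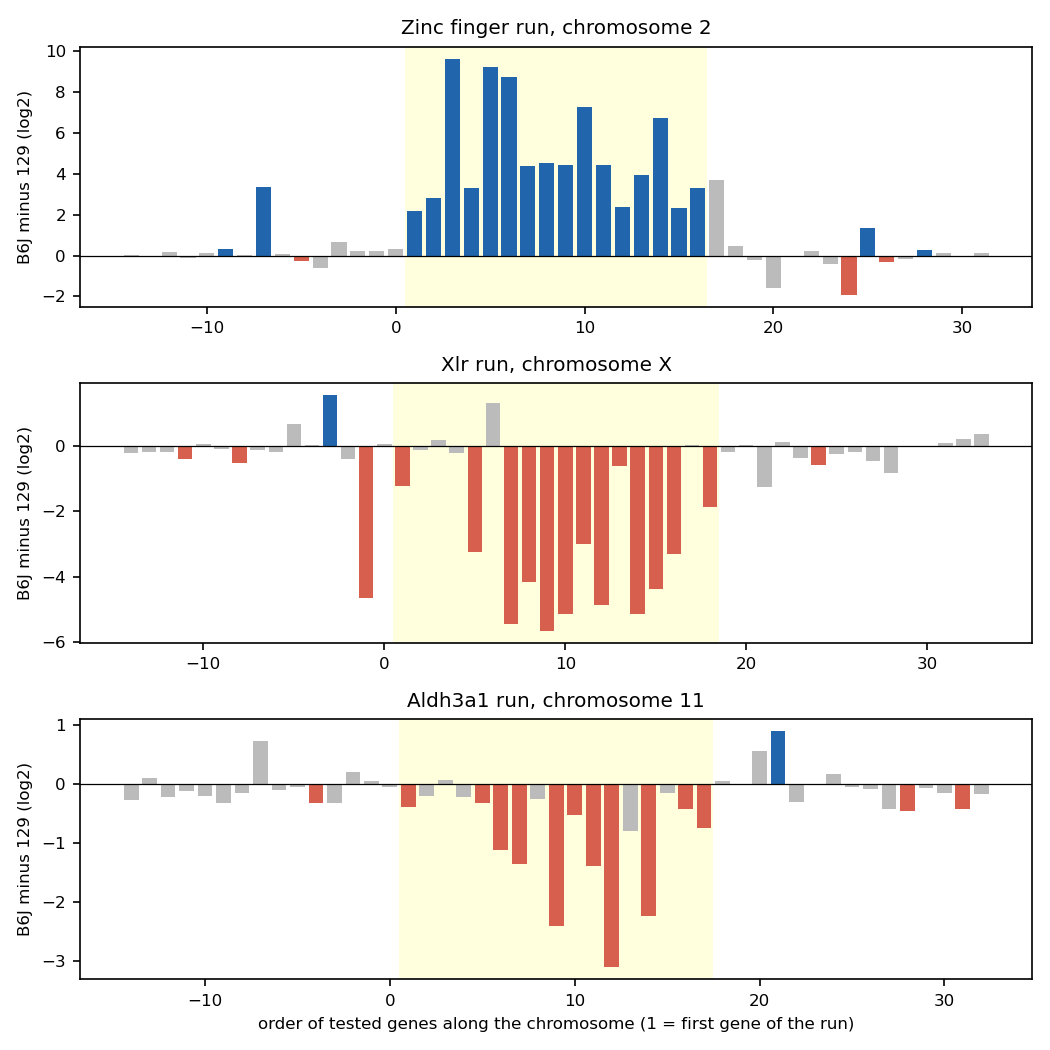
Log2 differences B6J minus 129 under the inhibitor (y axis) by the order of tested genes along the chromosome (x axis) for 3 runs (shaded) and their neighbours, blue or red where called and grey where not. A gene with 0 counts in a group is drawn at its bound against 3 counts. All 16 genes of the chromosome 2 run are above 0, and the Xlr (13 of 18 called) and Aldh3a1 (11 of 17) runs lie mostly below 0.

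The 6 most abundant called genes in each direction were taken next. Toward B6J these were Nedd4, Pkm, Rps2, Rplp1, Hspa8 and Rplp0, with Hspa8, a chaperone, at 3693, 3618 and 3584 CPM against 2357, 2467 and 2677 (0.54 ± 0.08). Toward 129 they were Fscn1, Ckb, H3f3b, Pfn1, Arhgdia and Sfpq. Fscn1, an actin bundler, had 688, 656 and 612 CPM in 129 and 312, 340 and 407 CPM in B6J (-0.89 ± 0.09), with B6J highest in library 3. Pfn1, another actin regulator, had 672, 714 and 795 CPM in B6J against 874 to 964 in 129 (-0.33 ± 0.07). Some of these calls rested on single libraries. Arhgdia was not called without any library but B6J library 3 (adjusted p up to 0.0989) or with the replicate block, and Sfpq without any but 129 library 1 (up to 0.122). H3f3b was not called without 129 library 2 or 3 or B6J library 1, Rplp1 without 129 library 2 or 3 or B6J library 3, and Nedd4 without B6J library 1 or 2 (up to 0.0622, 0.0689 and 0.0543). Adding the fibroblast marker level of each library to the model gave 4314 called genes in place of 3053, with 2114 higher and 2200 lower.

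Some genes differed between strains by an amount that depended on the medium, and those described next were chosen for the size of their interaction. Sema5a was level in DMSO (11.6 CPM in 129 and 8.32 CPM in B6J on average, -0.48, not called) and apart under the inhibitor (2.28 and 16.8 CPM). Its interaction was 3.36 ± 0.29 (edgeR adjusted p = 0.00115). Kbtbd11 moved in the other sense, from 11.8 CPM in 129 with DMSO to 33.8 with the inhibitor, while B6J had 0.642 and 0.227 CPM (interaction -3.03 ± 0.35, adjusted p = 0.00246). Nrcam, a neural adhesion molecule, was lower in B6J in DMSO (-1.39) and higher under the inhibitor (0.87), with 11.1, 10.2 and 12.3 CPM against 4.18, 6.52 and 7.63 (interaction 2.26 ± 0.27). Wnt7b, a Wnt ligand, went from 0.67 in DMSO to -1.31 under the inhibitor, with 6.39, 4.86 and 4.33 CPM in B6J against 12.4 to 13.5 in 129 (interaction -1.98 ± 0.29). Egr3, Eomes, Esrp1, Fbxo2, Kbtbd11, Nrcam, Rhox6, Rhox9, Sema5a, Setdb1 and Wnt7b kept their interaction call in every alternative that was run.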

How the data were processed

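RNA of 12 libraries in 4 groups of 3 was sequenced. Libraries were made with TruSeq Stranded mRNA kits and read on an Illumina NovaSeq, per the labels' protocols. The authors deposited raw counts per gene. The submitters' processing notes name GRCm38 (mm10) as build and list STAR 2.7.10, HTSeq 0.6.1p1, SAMtools and DESeq as tools, without saying what each did. How multi-mapping reads and strand were handled is not given in the sources used here. Most low counts were even, as if a fragment could give 2 counts. The 13 mitochondrial genes held 0 counts in every library. Of 26742 genes, 26725 identifiers were found in GENCODE M21, which gave positions, and 21775 had a count.

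Counts were tested with edgeR 4.0.16 (R 4.3.3): TMM factors, filterByExpr with a minimum count of 10 and a total of 15, and 4 group means over 12 libraries, so that all groups share the estimate of spread. Genes were called at an adjusted p of 0.05 (Benjamini-Hochberg over all 16627 tested genes). Levels are CPM of the library total times its TMM factor and are not divided by gene length. Intervals of counts are at 95% and cover counting error only, as do floors of 3 counts. Members and gene lists were chosen with earlier results of these data known. Named genes were the 12 with the largest difference in each direction (at least 5 CPM in the higher group, no overlap, no provisional names), up to 4 called members of each of 35 lists in each direction, a list of pluripotency, methylation and sex genes, the 6 largest interactions in each direction, up to 4 members of each run, and the 6 most abundant called genes in each direction. Of the genes named in the text, Eno1, Hmga1 and other members of copy pairs were named after their values were seen. Alternatives were limma 3.58.1 (voom), DESeq2 1.42.0, other scaling factors and filters, the replicate number as a block, a fibroblast marker covariate, halved counts and leaving out libraries.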

Additional observations from a re-analysis of the deposited data

Results flagged for a closer look

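The strain difference under the inhibitor differed from that in DMSO, by edgeR's interaction term over all genes, for 31 named genes. Sema5a, Xlr3a, Egr3, Eomes, Nrcam, Fmr1nb, Kbtbd11, Serpina3m, Rhox6, Rhox9, Wnt7b and Scn2b were among those chosen for the size of this interaction, so that their values describe the choice. The values are log2 interactions, and a negative value means a difference shifted toward 129 under the inhibitor. Kbtbd11 had -3.03, Serpina3m -2.38, Grid1 -2.25, Rhox6 -2.18, Rhox9 -2.17, Wnt7b -1.98 and Scn2b -1.95. Apobec2 had -1.53, Fbxo2 -1.39, Dppa3 -1.10, Steap1 -1.01, Chac1 -1.01, Grhl2 -0.92 and Setdb1 -0.80. Smaller values were those of Pdk1 at -0.75, Rcan3 at -0.74, Cpsf4l at -0.68 and Atf4 at -0.47. Shifted toward B6J were Haus4 by 0.54, Abcb1a by 0.76, Tdrd5 by 0.98, Esrp1 by 1.01 and Rem2 by 1.32. Larger shifts in that direction were 1.73 for Sox11, 1.76 for Carmil3, 1.89 for Fmr1nb, 2.08 for Egr3, 2.26 for Nrcam, 2.41 for Eomes, 3.36 for Sema5a and 4.21 for Xlr3a.

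Of these 31, 11 kept the interaction call in every alternative run. Xlr3a lost it with limma-voom alone and Scn2b without B6J inhibitor library 2 alone. The others lost it in 2 to 13 alternatives, with Apobec2 and Haus4 at 13.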

How the results depend on the processing

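The count of 3053 genes called under the inhibitor was 2736 with the replicate block, 3221 from the 6 inhibitor libraries alone, 3801 with DESeq2, 3119 with limma-voom, 2847 with no filter and 2354 with a stricter filter. It was 2131 to 2787 with 1 library left out. Leaving out 129 library 1 and B6J library 3 together, an alternative chosen after seeing the data, gave 974 genes higher in B6J in place of 1479. The interaction count of 246 was 156 with the replicate block, 798 with DESeq2, 163 with limma-voom and 820 with the fibroblast covariate, and 73 to 586 with 1 library left out. The cause was not tested. Same-numbered libraries had correlations of deviations from -0.32 to 0.442, so the numbers were not taken to pair the libraries. Within 129 the 3 DMSO and inhibitor pairs had 0.442, 0.295 and 0.222, and within B6J -0.188, 0.088 and -0.17. With the block, 252 of 270 named genes kept their side of the threshold and 18 called genes lost it. With both libraries that stood apart left out, 48 lost it. No named gene changed sign in a call. Other scaling factors moved the median difference by 0.0037 and -0.007. With 3 libraries a group and an unstated origin of the replicates, small differences may go undetected.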
